A study of Mus musculus with 36 samples.

Results

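The loci of 4 chemokine genes of the mouse, Cxcl1, Cxcl2, Cxcl3 and Cxcl5, were examined for chromatin accessibility. Their peaks were chosen by position alone: every peak of the deposited table that overlaps the body of one of the 4 genes, or the 10000 bp to either side of it. This gave 18 peaks of 119751 in all. Of these, 3 belong to Cxcl5, 4 to Cxcl3, 5 to Cxcl1 and 6 to Cxcl2. A group of 6 peaks lies in the windows of both Cxcl1 and Cxcl2, and each was given to the nearer gene. All 18 passed the filter on low counts.

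Open chromatin was read out by ATAC-seq, an assay that cuts and tags accessible DNA with a transposase, in dendritic cells grown from the bone marrow of female C57BL/6J mice aged 6 to 8 weeks. The marrow was cultured with GM-CSF at 15 ng/mL, and the cells then met, over 6 h, agonists of innate immune receptors, the sensors of microbial and viral products. The 36 libraries form 18 groups of 2, all of the same wild-type strain: an unstimulated control (Ctrl), 6 single ligands, 8 pairs and 3 triplets. Given alone were PAM, written P here, LPS (L) and HMW (H), then SeV (S) and 3',3'-cGAMP (cG), and last zymosan labelled as depleted (Z). The pairs are PL, PH, LH, PS, PcG, ScG, ZS and ZcG, and the triplets are PLH, PScG and ZScG, each named by the letters of its ligands. PAM names synthetic lipopeptides sensed by TLR2, LPS is bacterial lipopolysaccharide sensed by TLR4, SeV is Sendai virus, an RNA virus, and 3',3'-cGAMP is a cyclic dinucleotide sensed by STING. Depleted zymosan is a yeast cell wall preparation sensed chiefly by Dectin-1. Nothing in the labels says whether the 2 libraries of a group came from separate mice or cultures, so each p-value measures only the spread between these libraries, which may be technical. GM-CSF cultures of bone marrow also hold macrophages and granulocytes, and in such bulk samples a change in the number of cells with an open site cannot be told apart from a change per cell.

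The 4 genes encode CXC chemokines with the ELR motif, small secreted proteins that draw neutrophils out of the blood through the receptor CXCR2. They sit in one cluster on mouse chromosome 5 that arose by gene duplication. In macrophages and dendritic cells, Cxcl1, Cxcl2 and Cxcl3 are classical early targets of NF-kappaB, the transcription factor set free when Toll-like receptors signal, while Cxcl5 is best known from epithelial cells and platelets.

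Since the peaks over the starts carry the main results, the 250 bases before the start, which lie inside those peaks, are shown for the 3 genes with an entry in the RefSeq table (GRCm38.p6, the mm10 build, + strand, 5′ to 3′). Capitals mark a run of the NF-kappaB type, GGGAATTTCC, and a downstream ATAAAAG of the TATA box type.
Cxcl1, chr5:90890995-90891244: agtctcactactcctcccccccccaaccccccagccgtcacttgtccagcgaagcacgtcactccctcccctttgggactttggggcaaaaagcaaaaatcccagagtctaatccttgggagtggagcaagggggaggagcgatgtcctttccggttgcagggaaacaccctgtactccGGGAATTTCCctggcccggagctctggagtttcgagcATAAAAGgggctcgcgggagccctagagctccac
Cxcl2, chr5:90903649-90903898: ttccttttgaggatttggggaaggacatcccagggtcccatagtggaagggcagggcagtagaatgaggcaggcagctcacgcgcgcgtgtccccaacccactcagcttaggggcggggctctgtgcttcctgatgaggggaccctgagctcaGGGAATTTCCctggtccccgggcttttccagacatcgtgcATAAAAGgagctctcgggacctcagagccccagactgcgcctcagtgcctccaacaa
Cxcl3, chr5:90785851-90786100: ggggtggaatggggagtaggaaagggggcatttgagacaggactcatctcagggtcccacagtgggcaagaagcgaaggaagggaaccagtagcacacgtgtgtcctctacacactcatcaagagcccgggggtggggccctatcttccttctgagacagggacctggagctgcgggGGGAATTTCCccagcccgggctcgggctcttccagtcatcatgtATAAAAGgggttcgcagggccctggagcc

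The longest run of letters that the 3 promoters share is GGGAATTTCCC, of 11 letters, which a search of both strands found in 14 of 32851 promoters of the table, or 0.0426%. Its first 10 letters, GGGAATTTCC, occur in 0.0852% of promoters. They begin 71 bases before the start of Cxcl1, 97 before that of Cxcl2 and 73 before that of Cxcl3, each time on the + strand. The letters ATAAAAG, found in 4.83% of promoters, end 28 bases before the start of Cxcl1, 51 before that of Cxcl2 and 23 before that of Cxcl3. Aligned over 250 bases, the promoters of Cxcl2 and Cxcl3 were identical in 58.7% of columns, those of Cxcl1 and Cxcl3 in 52.7% and those of Cxcl1 and Cxcl2 in 52.0%. Searches for the AP-1 type TGANTCA (6.75% of promoters) and the C/EBP type TTGCGCAA (0.164%) found neither in these 3 windows. These matches describe the letters only. The shared run was picked by comparing these 3 sequences, and binding was not measured.

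Libraries held 19097027 to 39977088 counts. A single peak over the mitochondrial genome took 44.1% to 63.1% of them and was left out, which left 8181254 to 21985891 counts. In control its share was 61.0% ± 1.23 (SD, n = 2). Z had 61.7% ± 1.06, ZcG 63.0% ± 0.157, ScG 59.4% ± 2.97 and ZScG 58.3% ± 0.556. In the other 13 groups the mean share was 44.4% to 54.5%, the highest being ZS. Its libraries had 58.1% and 51.0%, so ZS replicate 1 lay above ScG replicate 1 (57.3%) and ZScG replicate 1 (57.9%). Most comparisons with control also cross this divide between group means. Comparisons of P with L, H, S and cG, or of P with its pairs, do not, nor do those of control with Z, ZcG, ScG and ZScG. Of the 10 dendritic and myeloid marker genes, 10 had a peak at the start, with a summed level of 85.4 to 118 CPM (counts scaled to a common library size) per kb. Of the 8 neutrophil markers, 3 had one (S100a8, Camp and Csf3r), summing to 26.7 to 59.4 CPM per kb, and S100a9, Ly6g, Elane, Mpo and Cxcr2 had none.

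Levels are CPM after scaling by TMM, given for the 2 libraries of a group, and a peak was called when the adjusted p-value of edgeR's quasi-likelihood test was under 0.05 (Benjamini-Hochberg over all 119464 tested peaks). The 17 comparisons with control share the 2 control libraries. Per kb of peak and averaged over all groups, the peak over the Cxcl2 start had 13.0 CPM, that over the Cxcl3 start 6.16, that over the Cxcl1 start 4.55 and the Cxcl5 peak 3.83.

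PAM alone gave the highest level at both Cxcl2 and Cxcl3. The peak over the Cxcl3 start (chr5:90785601-90786628, 1028 bp, which holds the whole promoter window above) rose 3.84-fold with PAM and 2.04-fold with depleted zymosan, the pair PH gave 1.96-fold, and none of the other 14 stimulations was called. This gene encodes a CXCR2 ligand that is abundant in activated macrophages. Its level was 6.34 and 3.76 CPM in the control libraries, 18.3 and 20.2 in P, 10.8 and 9.75 in Z and 9.61 and 9.99 in PH. Both P libraries lay above every other library, and both Z and both PH libraries lay above every library but those of P. The log2 fold changes were 1.94 ± 0.24 (SE, adjusted p = 1.52e-11) for P, 1.03 ± 0.26 (adjusted p = 0.00503) for Z and 0.97 ± 0.25 (adjusted p = 0.00129) for PH. The 2 control libraries differ here. Without the lower one, Ctrl replicate 2, Z (0.69) and PH (0.63) were not called, cG was called lower at -1.002, and P stood at 1.60 on the log2 scale, still called. With the mitochondrial share as a covariate P (1.61) and Z (1.05) were called and PH (0.67) was not. Without Z replicate 1 the Z value was not called.

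The remaining groups sat close together at Cxcl3. LPS, a strong inducer of this gene's transcript in many myeloid cells, gave 4.17 and 4.53 CPM, within the range of the controls. The lowest mean was that of cG, at 2.78 and 3.51 CPM, a log2 fold change of -0.66 ± 0.29 that was not called (adjusted p = 0.0799). In the order of the 18 group means, 15 of the 17 neighbouring pairs had libraries that overlapped. The exceptions were the steps from P to Z and from PH to PL.

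**Figure D1:**
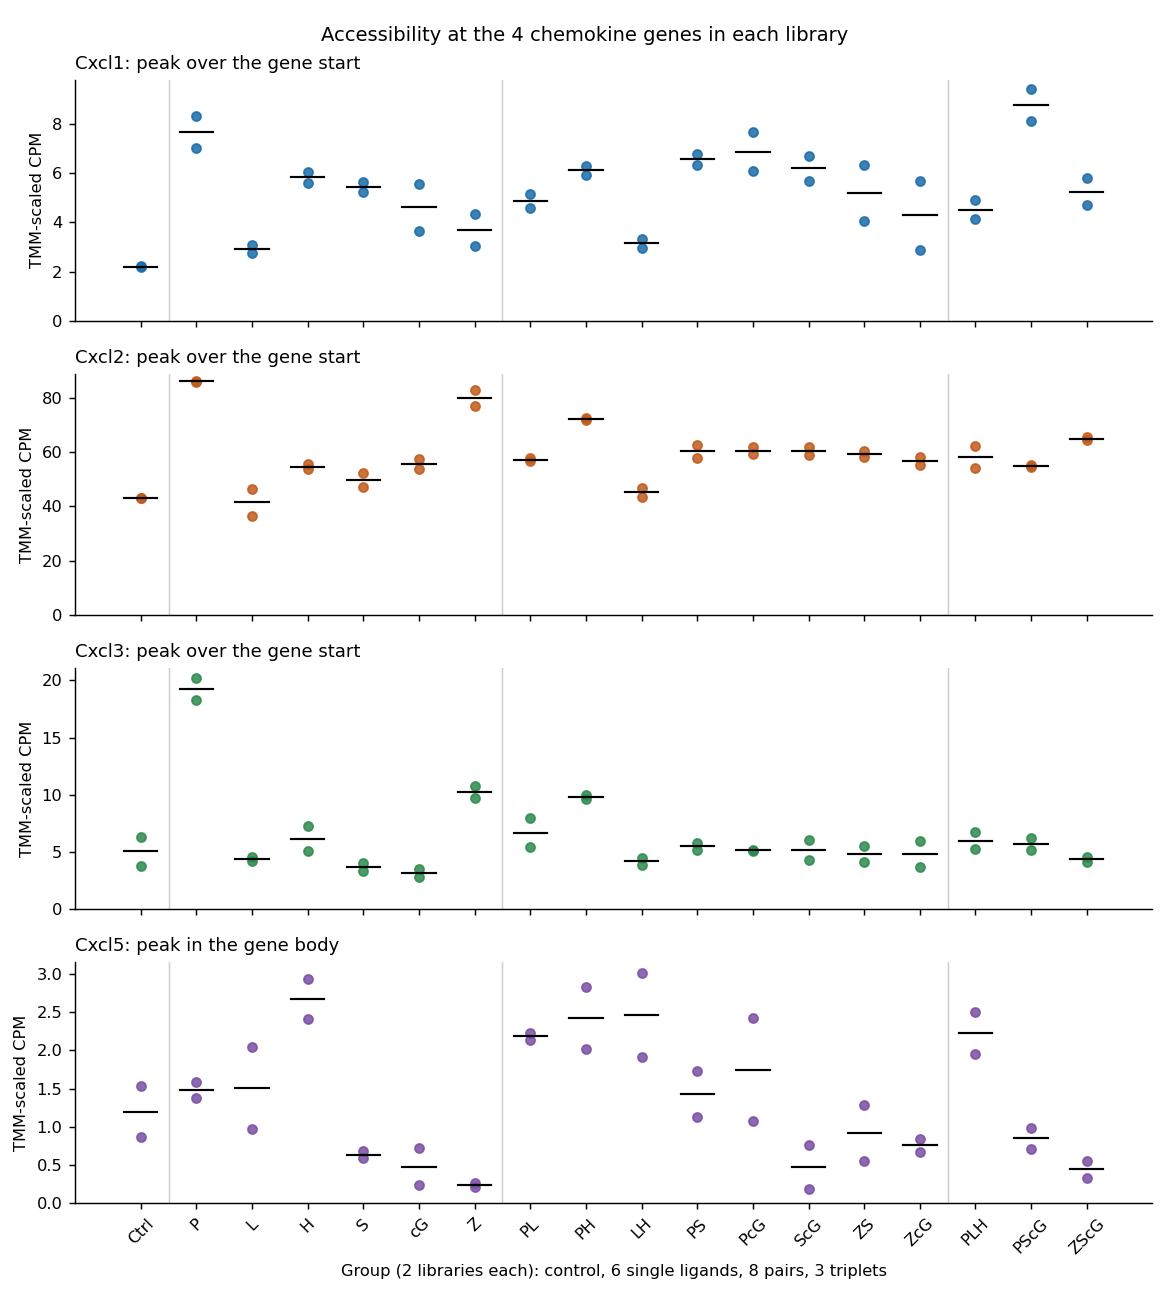
Level of the peak over the start of Cxcl1, Cxcl2 and Cxcl3 and of the peak in the body of Cxcl5, in TMM-scaled CPM (y axes, from 0), in the 18 groups (x axis). Each dot is a library and each bar the mean of 2. At Cxcl3 the P libraries stand at 18.3 and 20.2 CPM, above all others.

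At the 3′ end of Cxcl3 a broad peak (chr5:90788093-90790032, 1940 bp) that begins on the last base of the gene followed the start. It was chosen for description after its values were seen. It stood at 5.79 and 7.23 CPM in control, at 20.3 and 25.3 in P and at 14.1 and 12.9 in PH. The rise was 3.49-fold in P (log2 1.80 ± 0.22, adjusted p = 1.94e-12) and 2.06-fold in PH (log2 1.04 ± 0.22, adjusted p = 6.16e-05). In P and PH it was called without either control library too, and PH was not called with the mitochondrial covariate. Depleted zymosan, at 10.6 and 9.54 CPM, was above both controls, and its log2 fold change of 0.62 ± 0.24 was not called (adjusted p = 0.105). Across the 18 group means, the log2 levels of this peak and of the start peak had a Pearson r of 0.934, a description over groups that share the cluster and the library depth.

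The Cxcl3 peak 1995 bp upstream of the gene (chr5:90783689-90784106) went the other way. It was lower in 9 of 17 stimulations (L, cG, PL, LH, PS, ScG, ZcG, PLH and ZScG) and higher in none. Control libraries had 3.93 and 4.24 CPM, and ZScG, the lowest, 0.782 and 0.689, which was 5.48-fold lower (log2 -2.45 ± 0.49, adjusted p = 1.53e-05). PAM and zymosan, which raised the start peak, left this one at 3.21 and 3.90 CPM and at 4.72 and 4.20, with no call. Without Ctrl replicate 2 the count of 9 fell to 1 (ZScG), and with library sizes set by total counts it was 3. The small peak 2217 bp past the gene, at 0.107 to 1.35 CPM in single libraries, was not called in any stimulation.

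At Cxcl2 the response was smaller and reached more groups. This gene encodes the mouse counterpart of the MIP-2 proteins, potent neutrophil attractants. Its start peak is broad (chr5:90902942-90907471, 4530 bp) and covers the whole gene. The control libraries gave 42.9 and 43.1 CPM, P gave 85.9 and 86.2 and Z gave 82.9 and 76.9. It rose 2.00-fold in P (log2 1.00 ± 0.10, adjusted p = 7.84e-17) and 1.86-fold in Z (log2 0.89 ± 0.10, adjusted p = 1.94e-12). It was called higher in 14 of 17 stimulations, and not in L, S and LH. The smallest of the called rises was 1.27-fold, in H, whose libraries stood at 55.5 and 53.5 CPM.

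LPS gave the lowest group mean at Cxcl2, with libraries at 36.5 and 46.2 CPM around the controls (log2 -0.05 ± 0.10, adjusted p = 0.773). When library sizes were total counts, which moved the median of all peaks in P against control from -0.04 to 0.28 on the log2 scale, all 17 stimulations were called higher at the Cxcl2 start, L among them at 0.37. With the mitochondrial share as a covariate the count was 7: P, Z, PH, ScG, ZS, ZcG and ZScG. The order of the group means was better resolved than at the other genes, since 10 of 17 neighbouring pairs overlapped. The 4 highest groups, P, Z, PH and ZScG, each stood clear of the next.

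Of the other Cxcl2 peaks, 3 were called in at least 1 stimulation. The one 4755 bp upstream (chr5:90898213-90899144) was lower in 13 of 17 stimulations by 0.44 to 0.76 on the log2 scale, from 20.2 and 25.1 CPM in control to 14.1 and 12.6 in LH. Without Ctrl replicate 2 that count was 3, and with total counts it was 4. The peak 2736 bp upstream was higher in PcG, ScG, PScG and ZScG and not in cG alone or ZcG, with the largest log2 fold change of 1.14 in ZScG. The 200 bp peak 1037 bp upstream was called in PScG, at 1.82, and in no other stimulation. Without Ctrl replicate 2 neither was called. Neither peak past the gene, 1554 bp and 3017 bp away, was called in any stimulation.

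At Cxcl1, the gene of the chemokine also known as KC, the start was the least accessible of the 3 per kb in control and rose with most stimuli. The peak (chr5:90890535-90891683, 1149 bp) stood at 2.18 and 2.22 CPM in control, at 8.33 and 7.00 in P and at 9.43 and 8.11 in PScG, the highest group. It was called higher in 14 of 17 stimulations, and not in L, LH and Z. The rise was 3.47-fold in P (log2 1.79 ± 0.30, adjusted p = 6.22e-07) and 3.96-fold in PScG (log2 1.98 ± 0.30, adjusted p = 9.89e-09). LPS gave 2.76 and 3.07 CPM, above both controls but without a call (log2 0.41 ± 0.33, adjusted p = 0.409). Zymosan gave 4.33 and 3.04 CPM (log2 0.72 ± 0.35, adjusted p = 0.235), so the ligand with the second highest level at Cxcl2 and Cxcl3 was not called at Cxcl1. Leaving out either control library gave 11 of 17. Of 17 neighbouring pairs of group means, 16 overlapped.

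Upstream of Cxcl1, 9875 bp before its start and so just inside the window, a peak of 483 bp (chr5:90880888-90881370) had the largest fold changes among the 18. It held 0 and 5 counts in the control libraries and 43 and 55 in P, or 3.29 and 3.97 CPM. The log2 fold change in P was 3.79 ± 0.62 (adjusted p = 2.42e-07), and its size rests on the 5 control counts. It was called higher in 10 of 17 stimulations, 7 of them with PAM, the others being LH, ScG and ZS. Without Ctrl replicate 1 the count was 7, without Ctrl replicate 2 it was 15, and with the mitochondrial covariate it was 4. The next peak, 10424 bp before the start and outside the window, had a log2 fold change in P of 1.203 that was not called. It was called higher in 10 of 17 stimulations (L, cG, PL, PS, PcG, ZS, ZcG, PLH, PScG and ZScG). Its control libraries held 2 and 2 counts.

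Among the other Cxcl1 peaks, the most accessible of all 18 per kb (chr5:90881440-90882511, 23.2 CPM per kb) was lower in H and ScG, by 0.58 and 0.47 on the log2 scale. The one 909 bp past the gene was higher in P, PH, PcG and PScG, with the largest log2 fold change of 1.75 in PcG. With the mitochondrial covariate it was called in 0, and the largest value was 1.07. The one 4115 bp past the gene was lower in ScG and ZScG. Without Ctrl replicate 2 the counts of these 3 peaks were 0, 1 and 0.

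Cxcl5 showed no called change in its gene body. No peak overlapped either end of the gene, and the peak in the body (chr5:90760946-90761295, 350 bp) stood at 1.53 and 0.868 CPM in control. The highest group was H, at 2.41 and 2.93, and the lowest was Z, at 0.262 and 0.210, which is 2 counts in each library. In H the log2 fold change was 1.16 ± 0.51 (adjusted p = 0.133) and in Z it was -2.30 ± 0.79 (adjusted p = 0.0598). With total counts as library sizes 4 stimulations were called higher at this peak, and with the mitochondrial covariate 1 was called lower. Of 17 neighbouring pairs of group means, 16 overlapped.

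Further out at Cxcl5, the peak 9804 bp past the gene end (chr5:90771429-90771828) lies next to the peak over the start of the gene Pf4 (chr5:90772018-90772654). The Pf4 peak was called lower in 12 of 17 stimulations and held 51 and 51 counts in the control libraries. The peak 9804 bp past Cxcl5 was called lower in all 17 stimulations. Its control libraries held 28 and 68 counts, or 3.06 and 6.56 CPM, and the libraries of the stimulated groups 0.269 to 2.48 CPM. Without Ctrl replicate 2, the higher of the controls, only PScG was still called, so this count rests on that library. The 202 bp peak over the neighbouring gene Ppbp, which encodes a platelet chemokine, was lower in S, PL, ZS, PLH and PScG, and in none without Ctrl replicate 2.

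**Figure D2:**
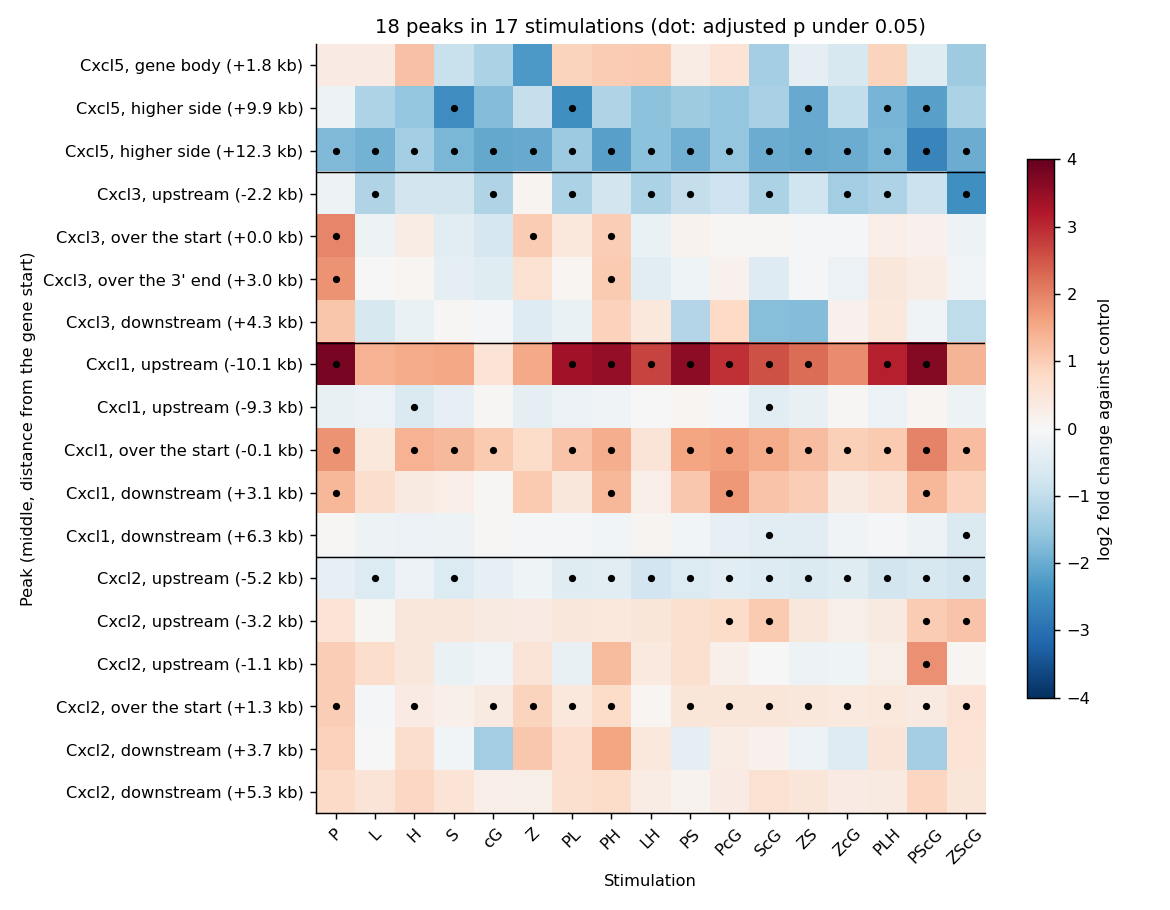
Log2 fold change against control (colour) of the 18 peaks (rows, by gene and by the distance of the peak's middle from the gene start in kb) in the 17 stimulations (columns), with a dot where the adjusted p was under 0.05. The Cxcl1 start has 14 dots, the Cxcl2 start 14 and the Cxcl3 start 3.

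Counted by stimulation, the calls are set beside the share of all tested peaks. PAM called 7 of 18 (6 higher, 1 lower), against 20.5% of all tested peaks. LPS called 3, all lower, against 22.3%. The counts were 4 in H (10.7% of all peaks), 4 in S (27.9%), 4 in cG (23.3%) and 3 in Z (5.91%). Only in the first and the last of these 6 ligands did the Cxcl3 start pass the test.

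Among the pairs, 7 peaks were called in PL (27.3% of all peaks), 8 in PH (26.4%), 4 in LH (21.8%) and 6 in PS (33.4%). A further 7 were called in PcG (33%), 9 in ScG (27.7%), 6 in ZS (28.3%) and 5 in ZcG (21.6%). The triplets called 7 in PLH (29.7%), 9 in PScG (37.1%) and 7 in ZScG (32.3%). Over the 17 stimulations this came to 100 of 306 values, 52 higher and 48 lower. With total counts as library sizes the split was 80 higher and 27 lower, and without Ctrl replicate 2 the total was 49. Over all tested peaks, too, total counts shifted the split. The share of calls that were higher then ran from 46.7% in ZcG to 91.7% in H, with 87.1% in P and 88.8% in L. With TMM scaling, the median log2 fold change of the 18 peaks was 0.85 in P, 0.83 in PH and 0.28 in Z, against -0.04, -0.02 and 0.00 over all tested peaks.

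PAM was then set against the other single ligands directly, a comparison without the control libraries. The Cxcl3 start was higher in P than in each of the other 5, by 2.14 ± 0.23 over L, 1.66 ± 0.23 over H, 2.37 ± 0.24 over S, 2.60 ± 0.25 over cG and 0.91 ± 0.23 over Z on the log2 scale. The largest of the 5 adjusted p-values was 0.00226, for Z. The Cxcl2 start was higher in P than in L (1.05 ± 0.10), H (0.66 ± 0.10), S (0.79 ± 0.10) and cG (0.63 ± 0.10), and its difference from Z, 0.11 ± 0.10, was not called (adjusted p = 0.541). The Cxcl1 start was higher in P than in L (1.39 ± 0.27), cG (0.74 ± 0.26) and Z (1.07 ± 0.29). Its differences from H (0.39 ± 0.25) and S (0.50 ± 0.25) were not called. The upstream Cxcl1 peak was higher in P than in all 5, by 2.24 to 3.23 (log2).

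In all, 5 of the 18 peaks were called between P and L (11.1% of all peaks), 4 between P and H (12.1%), 5 between P and S (24.5%), 9 between P and cG (23.8%) and 5 between P and Z (11.1%). Every one of these calls was higher in P except 1, the strongest Cxcl1 peak against cG. The other 10 comparisons of single ligands gave 23 calls of 180 values, against 8.82% of all peaks. The P libraries also had the highest summed level of the neutrophil markers S100a8, Camp and Csf3r, at 53.4 to 59.4 CPM per kb, against 45.1 to 46.9 in L, 34.6 to 43.1 in H, 31.3 to 33.0 in S, 31.1 to 36.6 in cG and 48.2 to 48.3 in Z. The controls stood at 37.4 to 50.9. Csf3r did not follow this sum: it held 85 and 60 raw counts in P and 146 and 173 in L. Counts outside the mitochondrial peak were 12583770 and 12966927 in P and 12423231 and 16530431 in L. The part of these markers in the chemokine result was not tested.

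Adding a partner to PAM lowered Cxcl3. The start fell from 18.3 and 20.2 CPM in P to 7.97 and 5.40 in PL, 9.61 and 9.99 in PH, 5.20 and 5.77 in PS and 5.20 and 5.10 in PcG. No library of these 4 pairs reached the P libraries. Against P, the differences were -1.50 ± 0.23 for PL (adjusted p = 1.61e-07), -0.97 ± 0.21 for PH (adjusted p = 0.00181), -1.80 ± 0.22 for PS (adjusted p = 1.59e-11) and -1.90 ± 0.23 for PcG (adjusted p = 5.37e-12) on the log2 scale. The 3′ peak fell as well, by 1.71, 0.76, 1.96 and 1.63 in the same order, each called. All 5 groups in these comparisons have a mitochondrial share from the lower set. With that share as a covariate the 4 Cxcl3 start differences were -1.45, -0.94, -1.91 and -2.02, all called. The PH value was not called without P replicate 2 or PH replicate 1.

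The same held for zymosan. The Cxcl3 start went from 10.8 and 9.75 CPM in Z to 4.08 and 5.53 in ZS (-1.08 ± 0.26, adjusted p = 0.00131) and to 5.91 and 3.67 in ZcG (-1.10 ± 0.27, adjusted p = 0.00229). The 3′ peak fell by 0.68 in ZS and 0.84 in ZcG, and the ZS value was not called with total counts or with the covariate. Without ZS replicate 1 or ZcG replicate 2, respectively, the start value was not called.

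At Cxcl2 the partners lowered the start peak by less. It stood at 57.8 and 56.5 CPM in PL, 71.8 and 72.5 in PH, 62.5 and 57.9 in PS and 61.7 and 59.1 in PcG, all below the P libraries and above the controls. The differences from P were -0.59 ± 0.10 for PL, -0.52 ± 0.09 for PS and -0.51 ± 0.09 for PcG, all called, and -0.25 ± 0.09 for PH, not called (adjusted p = 0.135). From Z it fell by 0.43 in ZS and by 0.50 in ZcG. With total counts the ZS value was not called.

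The Cxcl1 start was not called in any of these 6 comparisons. PL stood at 5.17 and 4.58 CPM, below both P libraries (-0.64 ± 0.26, adjusted p = 0.112). PH, at 5.92 and 6.29 (-0.33 ± 0.25), and PS, at 6.77 and 6.34 (-0.23 ± 0.24), also lay below both, and PcG stood at 6.07 and 7.65 (-0.17 ± 0.24, overlapping P). ZS (0.50 ± 0.31) and ZcG (0.22 ± 0.32) had positive estimates. Whether Cxcl1 and Cxcl3 differ in their response to a partner was not tested.

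Counted over the 18 peaks, 3 were called in PL against P (8.47% of all peaks), 2 in PH against P (2.68%), 5 in PS against P (18.1%) and 3 in PcG against P (14.8%). Against Z, 3 were called in ZS (15.2%) and 4 in ZcG (9.08%). Of these 20 calls, 19 were lower, and the exception was the strongest Cxcl1 peak, higher in PS. Seen from the partner's side, the other 10 comparisons of a pair with a single ligand gave 17 calls of 180 values, against 3.55% of all peaks. The upstream Cxcl1 peak was higher in PL, PH, PS and PcG than in the partner alone, by 1.97 to 2.37. The summed level of the 3 neutrophil markers was also lower in these pairs. It was 38.6 to 45.02 CPM per kb in PL, 47.4 to 47.7 in PH, 41.8 to 43.9 in PS and 42.4 to 46.3 in PcG. In ZS it was 29.1 to 35.2 and in ZcG 26.7 to 34.4. Csf3r did not follow the sum: it held 85 and 60 raw counts in P and 121 and 67 in PL. The dendritic and myeloid markers went from a mean of 114 CPM per kb in P (109.6 to 117.9) to 89.3 in PL, 89.0 in PH, 104 in PS and 99.6 in PcG, with no library of these pairs reaching P, and from 108 in Z (97.9 to 117) to 103 in ZS and 94.1 in ZcG. The 2 B cell markers with a peak stood at 8.44 to 9.46 in P and were above that range in all 4 pairs, up to 18.5 to 19.3 in PS. The part of these markers in the chemokine result was not tested.

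**Figure D3:**
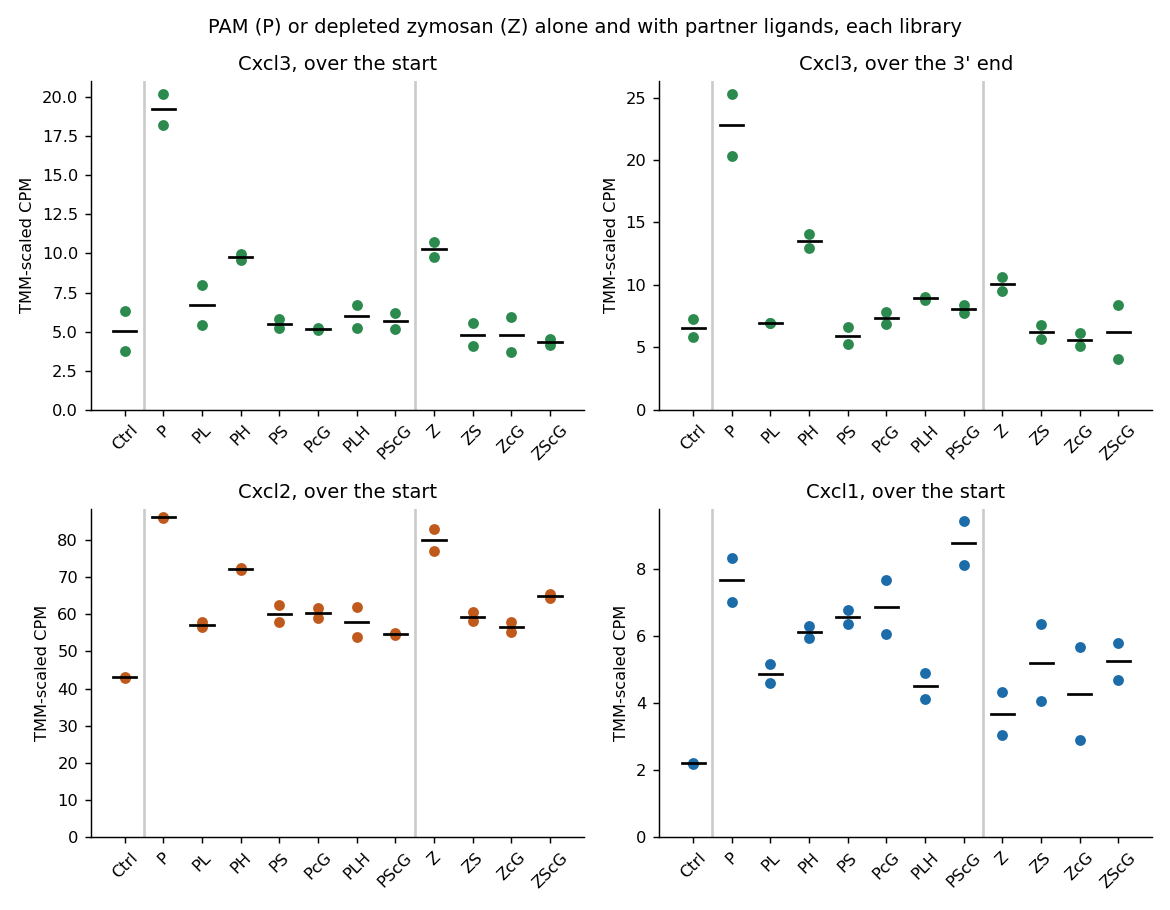
Level in TMM-scaled CPM (y axes, from 0) of both large Cxcl3 peaks and of the starts of Cxcl2 and Cxcl1 in control, in P or Z alone and in their combinations (x axis). Dots are libraries and bars means of 2. Both Cxcl3 peaks fall from P to each of its pairs, to 5.20 and 5.10 CPM at the start in PcG.

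The interaction contrast asks whether a pair differs from the sum of its ligands on the log2 scale. At the Cxcl3 start it was negative in PL (-1.31 ± 0.35), PH (-1.26 ± 0.34), PS (-1.37 ± 0.35) and PcG (-1.24 ± 0.37), and positive in ScG (1.15 ± 0.40), each called. The ScG value was not called with total counts (0.52), with the mitochondrial covariate (1.88, adjusted p = 0.507), with only the groups compared in the fit (1.15, adjusted p = 0.0625), or without replicate 1 of Ctrl (0.74), S (1.02), cG (0.997) or ScG (0.87). At the Cxcl2 start it was negative in PL, PH, PS, PcG, ZS and ZcG, by 0.54 to 0.88, and not called in LH and ScG. At the Cxcl1 start it was called in PH (-1.73 ± 0.40) and PS (-1.52 ± 0.40). The start peaks thus gave 12 negative calls and 1 positive one over the 8 pairs. Over all tested peaks, too, more interactions were called negative than positive in each pair. The shares were 4.2% and 2.56% in PL, 1.09% and 0.465% in PH, 2.62% and 2.26% in LH and 2.91% and 1.67% in PS. They were 2.18% and 1.09% in PcG, 7.52% and 6.93% in ScG, 2.61% and 0.825% in ZS and 1.74% and 0.753% in ZcG.

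Over the 18 peaks, 4 interactions were called in PL (6.77% of all peaks), 4 in PH (1.55%), 1 in LH (4.88%), 5 in PS (4.58%) and 4 in PcG (3.27%). The remaining pairs had 1 each, in ScG (14.4%), ZS (3.43%) and ZcG (2.49%). These contrasts contain the control libraries. With the mitochondrial share as a covariate the count of 21 was 5, and without Ctrl replicate 2 the count was 14. In PS, the calls at the Cxcl1 start, the Cxcl2 start and the Cxcl3 3′ end were still made with the covariate, and the Cxcl3 start value was -1.10 (adjusted p = 0.244).

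Adding a further ligand to a pair gave few calls. The Cxcl3 start stood at 6.71 and 5.24 CPM in PLH, 6.19 and 5.19 in PScG and 4.13 and 4.55 in ZScG, within 0.71 on the log2 scale of each of their pairs, with no call. Both PLH libraries lay below both PH libraries, and the lack of a call does not show that there was no change. Of 162 values of the 3 triplets against their pairs, 3 were called, against 1.11% of all peaks: the Cxcl3 3′ peak was higher in PLH than in LH (0.91 ± 0.23) and in PScG than in ScG (0.82 ± 0.25), and the strongest Cxcl1 peak was higher in PScG than in ScG (0.54 ± 0.13). Triplet interactions were called in 4 of 54 values, against 1.56% of all peaks. With the same partners, P and Z groups were called apart at 4 of 54 values (PS against ZS, PcG against ZcG and PScG against ZScG), against 7.31% of all peaks, and at no start peak. The largest was the upstream Cxcl1 peak, higher in PScG than in ZScG by 2.30 ± 0.55.

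**Figure D4:**
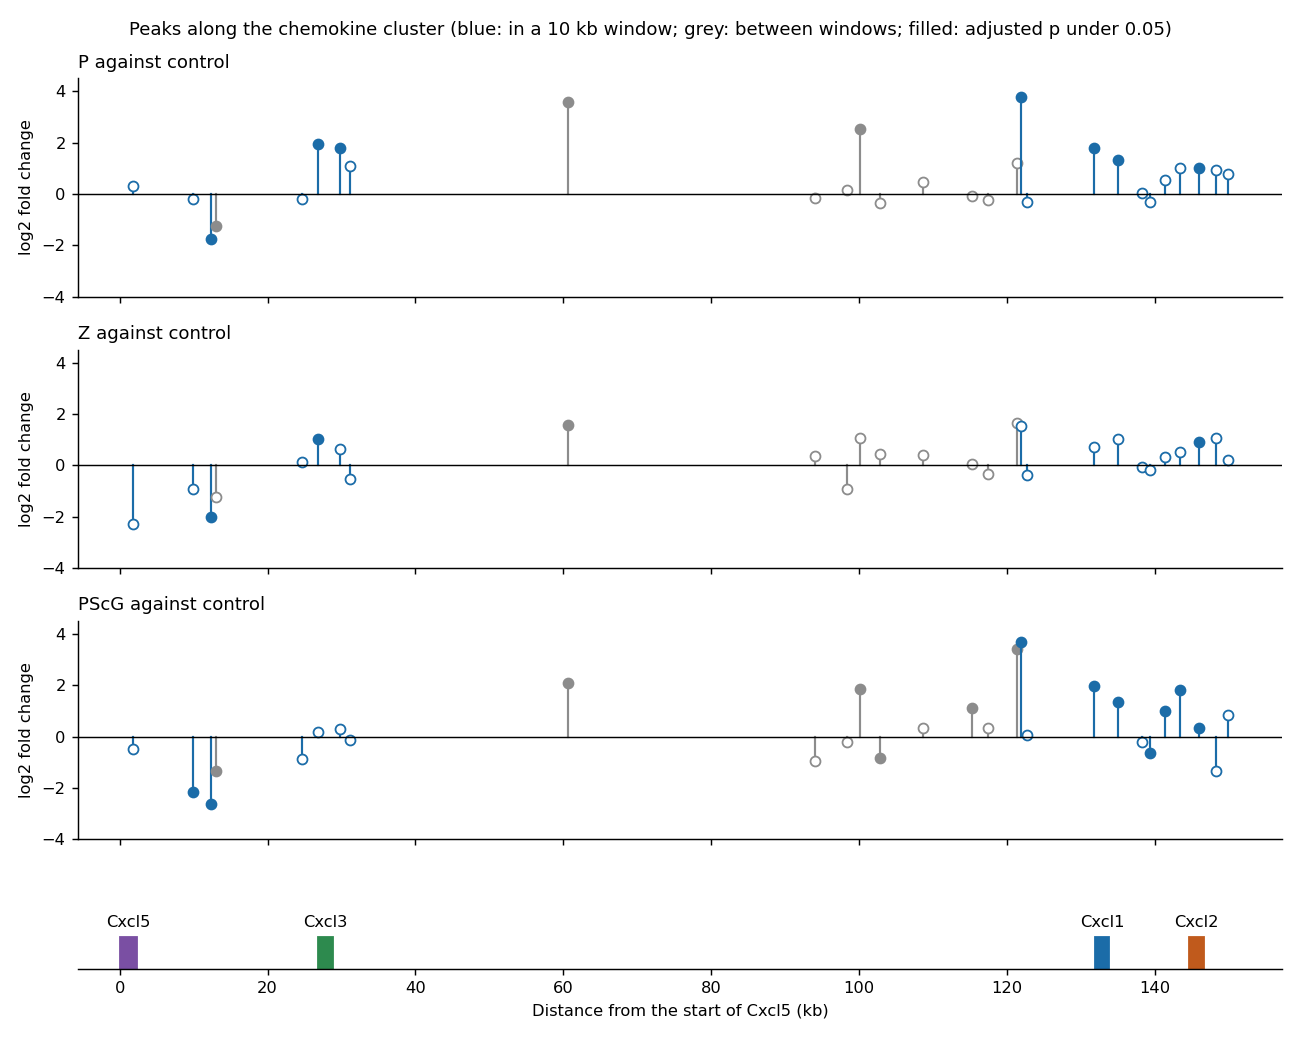
Log2 fold change against control (y axes) of the peaks along the cluster in P, Z and PScG, by distance from the start of Cxcl5 in kb (x axis), with the 4 genes drawn to scale. Filled dots had an adjusted p under 0.05, blue dots are the 18 peaks and grey dots lie between the windows. The Cxcl3 peaks stand up in P at 1.94 and 1.80 and lie near 0 in PScG.

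Other genes of the pathway, from a list of 36, had a peak at or within 1000 bp of the start in 32 cases. The receptor genes Cxcr1, Cxcr2 and Ackr1 and the neighbouring chemokine gene Cxcl15 had none. Tnf, a cytokine gene under NF-kappaB control, and Nfkbiz and Nfkbie, genes of IkappaB family proteins that NF-kappaB itself induces, were higher in 17 of 17 stimulations. In P their log2 fold changes were 1.27 ± 0.11, 0.75 ± 0.10 and 0.42 ± 0.10, and in L they were 1.35 ± 0.11, 0.40 ± 0.10 and 0.61 ± 0.10. Nfkb2, a subunit gene, was higher in 16. Cebpd, which encodes a C/EBP factor, was lower in 15. The gene of the AP-1 subunit Junb (higher) and the genes Cebpa and Cebpe of further C/EBP factors (lower) followed with 14 each. In L, the Cxcl1, Cxcl2 and Cxcl3 starts had no call. There 5 of the 10 NF-kappaB genes of the list were higher, against 11.3% of all tested peaks. They were Nfkb2 (0.70 ± 0.10), Rela (0.56 ± 0.14), Rel (0.24 ± 0.09), Nfkbiz and Nfkbie. The rest had no call: Nfkb1 (-0.13 ± 0.11), Relb (0.13 ± 0.09), Nfkbia (-0.02 ± 0.09), Tnfaip3 (0.22 ± 0.13) and Bcl3 (0.25 ± 0.20).

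By group of the list, 4 of the 10 NF-kappaB peaks were higher in P, 5 in L and 9 in S, and 0 were lower in any of these. Of all tested peaks 11.1% were higher in P, 11.3% in L and 14.1% in S. Of the 4 C/EBP peaks, 0 were higher in any stimulation and 2 were lower in P, 3 in L and 0 in Z. In L 11.1% of all tested peaks were lower. Of the 32 peaks, 7 were higher and 4 lower in P, 7 higher and 0 lower in Z, and 17 higher and 7 lower in PScG. Over all tested peaks 11.1% were higher and 9.41% lower in P, 4.16% and 1.75% in Z, and 19.0% and 18.1% in PScG. The median log2 fold change of the 32 was 0.10, 0.16 and 0.41, in that order, and that of all tested peaks -0.04, 0.00 and 0.04. The start of Pf4, the platelet chemokine gene between Cxcl5 and Cxcl3, was lower in 12 of 17 stimulations, from 5.25 ± 0.461 CPM in control to 2.199 ± 0.455 in P (SD, n = 2).

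The member start peaks were also compared with 22203 peaks near protein-coding genes by the Pearson r of mean log2 level over the 18 groups, as a description. The most alike were those near 3425401B19Rik (0.921), Mctp1, Alyref2, Fam174a and Tex14 for Cxcl3. For Cxcl2 they were near Pik3ca (0.852), Zdhhc20, Macrod2, Ext1 and Ttc39c. For Cxcl1 they were near Sema4d (0.916), Ptafr, Cspg4b, Hlcs and Frmd4b. For the Cxcl5 body peak they were near Themis2 (0.875), Zfp128, Ralgapa2 and Gm34066. Among the members themselves, r was 0.760 between the Cxcl3 and Cxcl2 starts, 0.560 between those of Cxcl1 and Cxcl2 and 0.331 between those of Cxcl3 and Cxcl1. The Cxcl5 body peak had an r of 0.205 with Cxcl3, -0.210 with Cxcl2 and 0.031 with Cxcl1.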

How the data were processed

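Per the labels, nuclei were tagmented and amplified without molecular identifiers. The authors deposited raw counts, whole numbers per peak and library, for one set of 119751 peaks. The submitters' processing notes name Bowtie2 2.2.9, MACS2 1.4, bedtools, featureCounts and the build mm10, without roles or settings. Duplicate removal, the shift of read ends for transposase binding and whether peaks were called on pooled libraries are not given in the sources used here. Unused per-sample columns numbered 0.

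The mitochondrial peak was left out, and filterByExpr by group (minimum count 10) removed 286 peaks, leaving 119464. TMM-scaled counts of all 36 libraries were fitted in edgeR 4.0.16 under R 4.3.3 (robust quasi-likelihood test, trended dispersion, 1 coefficient per group, 18 residual degrees of freedom). P-values were adjusted by Benjamini-Hochberg over all tested peaks within each of 71 contrasts. In counts simulated for P against control, the test recovered 47% of peaks changed 2-fold and 94% of those changed 4-fold. Only peaks above a minimum mean count were changed there, and several of the 18 member peaks lie below it.

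Genes, starts and promoters come from RefSeq tables for GRCm38.p6, and 3 of 4 members had a promoter there. The chemokine genes, lists and contrasts were chosen with earlier results of these data known. Values per library are given for each gene's start peak (or the nearest one) and for the peak of its window called in most stimulations, and other peaks were chosen after their values were seen. Same-numbered libraries did not deviate together (correlations -0.040 to 0.030 over 153 pairs of groups), so the replicate number was not used as a block. Alternatives covered scaling, the filter, the test (DESeq2 1.42.0), the libraries in the fit, the mitochondrial peak and share, a replicate block, a 5000 bp window and each library left out. One of the peaks most alike in pattern is not reported here.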

Additional observations from a re-analysis of the deposited data

Results flagged for a closer look

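At 25 values a combination of ligands differed from the sum of its parts on the log2 scale, by edgeR's test of the interaction term. In PL these were -1.31 at the Cxcl3 start, -1.70 at the Cxcl3 3′ end, -0.54 at the Cxcl2 start and 2.22 at the peak 9804 bp past Cxcl5. In PH they were -1.26 at the Cxcl3 start, -0.60 at the Cxcl2 start, -1.73 at the Cxcl1 start and 0.76 at the Cxcl1 peak 8734 bp upstream. That upstream peak also gave 0.83 in LH and 0.71 in PS. The other PS values were -1.37 at the Cxcl3 start, -1.56 at its 3′ end, -1.52 at the Cxcl1 start and -0.73 at the Cxcl2 start. In PcG they were -1.24 at the Cxcl3 start, -1.15 at its 3′ end, -0.88 at the Cxcl2 start and 2.27 at the peak 9804 bp past Cxcl5, whose control libraries held 28 and 68 counts. ScG gave 1.15 at the Cxcl3 start. ZS gave -0.64 and ZcG -0.86 at the Cxcl2 start.

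For the triplets the term compares the added ligand's effect with what the pairs and single ligands give. It was 1.66 in PLH and 1.72 in PScG at the Cxcl3 3′ end, -1.002 in PLH at the Cxcl1 peak 8734 bp upstream and 0.72 in ZScG at the Cxcl2 start. None of these 4 was called with the mitochondrial share as a covariate.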

How the results depend on the processing

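Of 220 called single values, edgeR lost 2 with DESeq2's size factors, 3 with the mitochondrial peak kept, 0 without the filter, 9 with only the compared groups in the fit, 11 with abundance-dependent offsets, 39 with total counts and 102 with the mitochondrial share as a covariate. DESeq2's Wald test kept 210 and lost 7, and with only the compared groups 210 were kept. In both cases the rest had no adjusted p-value and were counted neither as kept nor as lost. No called value reversed. Of 45 values of the named peaks against control that were not called, 1 reversed: the Cxcl2 start in L, -0.05, was called at 0.37 with total counts. Counted over all alternatives and left-out libraries, these uncalled values changed sign without a call 38 times. The replicate block lost 3, and gave 98 calls against control for 100. It changed no total by over 1.5 times, and the numbers do not pair the libraries.

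With the covariate the calls against control were 54, those of triplets against pairs 1, of pair interactions 5, of triplet interactions 0, between single ligands 32 and between P and Z with the same partners 0. By stimulation it left 0 in L, 1 in H, 2 in S, 0 in cG, 3 in PL, 5 in PH, 2 in LH, 2 in PS, 2 in PcG, 1 in PLH and 4 in PScG. Over all tested peaks the calls fell as well, from 26680 to 2206 in L, from 27802 to 3551 in cG and from 39365 to 6471 in PcG. They went from 7060 to 7129 in Z and from 25816 to 25170 in ZcG. With total counts triplets against pairs gave 9, triplet interactions 7 and P against Z with partners 18. Triplets against pairs gave 5 with offsets and 5 with DESeq2. A window of 5000 bp, which holds fewer peaks, gave 66 against control, with 2 in H, 2 in S, 4 in PL, 2 in LH, 3 in ZS and 4 in PLH. Except for that window, the cause was not tested.

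Leaving out each library gave 49 to 101 calls against control (lowest without Ctrl replicate 2, which lost 66 of 125 values), 32 to 37 of pairs against singles, 1 to 3 of triplets against pairs, 14 to 23 pair interactions, 1 to 5 triplet interactions, 45 to 50 between single ligands and 2 to 4 between P and Z with partners. By stimulation the ranges were 5 to 8 in P, 1 to 3 in L, 1 to 3 in H, 2 to 5 in S, 2 to 3 in cG, 1 to 3 in Z, 3 to 7 in PL, 4 to 7 in PH, 2 to 4 in LH, 3 to 6 in PS, 4 to 7 in PcG, 3 to 8 in ScG, 3 to 5 in ZS, 2 to 5 in ZcG, 3 to 6 in PLH, 4 to 7 in PScG and 5 to 7 in ZScG. The lone library left in a group is assumed to vary like the others. In counts simulated for P against control, 47% of 2-fold changes were recovered, so an uncalled value does not show that there was no change. For peaks with few counts, which were left unchanged in the simulation, the recovery was not measured.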

Other observations

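Between the windows of Cxcl3 and Cxcl1 lie further peaks that belong to no member, and 2 were picked after their values were seen. The first (chr5:90819692-90820292), 31.6 kb past Cxcl3 and 71.0 kb before Cxcl1, had 1.53 and 0.386 CPM in the control libraries, 11.7 and 10.7 in P, 5.44 and 4.42 in L and 3.15 and 2.52 in Z. It was higher in 11 of 17 stimulations, with a log2 fold change of 3.58 ± 0.38 in P (edgeR, adjusted p = 4.33e-15). Unlike any start peak, it was called between P and Z groups with the same partners, by 3.01 between PS and ZS, 2.42 between PcG and ZcG and 1.83 between PScG and ZScG. These groups also differ in mean mitochondrial share: 45.8% in PS and 54.5% in ZS, 45.1% in PcG and 63.0% in ZcG, 45.1% in PScG and 58.3% in ZScG. Values of this peak with that share as a covariate are not given here. The second (chr5:90859100-90859873), 31.4 kb before Cxcl1, had 1.09 and 2.12 CPM in control and 8.79 and 9.89 in P, a log2 fold change of 2.51 ± 0.33, and was higher in 10 of 17 stimulations. Both were called higher in L, where no start peak of the 4 genes was. The peak 10424 bp before Cxcl1 was also called higher in L.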
